A study of Canis lupus familiaris with 15 samples.

Results

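MS4A1, BCL6, CD38 and TLR10, 4 genes that mark B cells and their stages, were followed across 15 arrays of tissue from 5 dogs with lymphoma. They were chosen by name, and their probes were found through the canine RefSeq accessions that the array design gives to its probes. All 4 genes were found, on 5 of the 43603 probes, with 2 probes for CD38 and 1 for each of the others. Symbols could be given to 1340 genes in all, on 2163 probes (4.96%). RNA of each sample was labelled with Cy3 and hybridised to 1 canine Agilent array. The labels name the dogs Thai, Dog Y, Rosco, Jake and MalcolmX and give no age or breed. There were 2 skin biopsies as control tissue, from the lymphoma patients MalcolmX and Rosco. Biopsies of tumours called drug resistant came from 4 dogs (MalcolmX, Jake, Rosco and Dog Y), and the biopsy of a tumour called drug sensitive came from Thai. Of the Rosco and Dog Y biopsies the labels also say that they preceded treatment. Needle aspirates gave 1 sample of MalcolmX after metformin, a glucose-lowering drug. Aspirates of Rosco were taken after chemotherapy failed and before metformin (1), in remission after metformin (1), after relapse (3), and from a second resistant tumour (1). A sample of Rosco was also taken after death (1). Rosco thus gave 9 of the 15 arrays, and the 3 relapse aspirates measure spread within 1 dog and not between dogs.

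MS4A1 encodes CD20, a surface protein of B cells from the late precursor to the memory stage that is lost in plasma cells. BCL6 is the transcriptional repressor that holds B cells in the germinal centre, where they mutate their antibody genes. CD38 is an NAD-consuming surface enzyme known from human early B cells, germinal centre cells, plasma cells and activated T cells. TLR10 is a Toll-like receptor that human B cells express. B cell lymphomas usually keep the marker set of the stage from which they arose, and CD20 is a common marker of B cell origin in dogs.

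Levels are log2 processed signals minus the 75th percentile of their array, and a level of 0 is therefore that of a bright probe. A probe was counted as measured where the scanner software flagged it as well above background. The lowest signal so flagged lay between −6.86 and −5.50 on the 15 arrays, and each array had 66.8% to 75.9% of its probes flagged in this way. No probe was saturated. The arrays lay on 4 slides read on 2 scan days. These are bulk samples, in which fewer cells of a type and less RNA per cell cannot be told apart.

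There were 2 libraries labelled as lymphoma that stood apart, the Rosco biopsy and the second resistant aspirate of Rosco. In both, MS4A1 was not well above background. Of 12 exocrine gland markers 8 carried a symbol, and their summed level, in units of the 75th percentile, was 463 in the biopsy and 591 in the aspirate. On the other arrays that sum lay between 1.23 and 3.62, except in Rosco skin at 46.2. CA6, a secreted carbonic anhydrase, was at 8.59 and 8.99 in these 2 libraries. Both are called here by their labels, and results that rest on the biopsy are given with and without it.

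MS4A1 was well above background on 12 of 15 arrays. Its level was 3.53 in the Thai sensitive biopsy, and in MalcolmX it was 3.18 in the resistant biopsy and 3.21 in the aspirate after metformin. The Jake and Dog Y biopsies gave 2.92 and 2.68. The relapse aspirates of Rosco gave 2.18, 2.33 and 1.78, and the post-mortem sample 2.04. These 9 tumour samples formed an upper set with levels between 1.78 and 3.53. The failed-chemotherapy and remission aspirates lay below it, at 0.40 and 0.38. MalcolmX skin lay at 0.84, above both of these aspirates. Rosco skin, the Rosco biopsy and the second resistant aspirate, at −8.04, −7.16 and −6.73, were not well above background, so the 2 skin samples differ in whether the B cell gene was measured at all.

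TLR10 divided the arrays in much the same places. The relapse aspirates gave 1.01, 1.04 and 1.03, a spread of only 0.013 (SD, n = 3). Next came the Dog Y and MalcolmX biopsies at 0.92 and 0.79, the MalcolmX aspirate at 0.66 and the post-mortem sample at 0.44. The Thai biopsy (−0.19) and the Jake biopsy (−0.37) held the lowest TLR10 levels of the 9 samples with high MS4A1. MalcolmX skin followed at −1.49. The failed-chemotherapy and remission aspirates lay at −3.54 and −3.61, the Rosco biopsy at −4.77 and the second resistant aspirate at −5.22. Rosco skin, at −6.17, was the 1 array on which TLR10 was not well above background.

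CD38 was well above background on all 15 arrays with both probes. By the brighter probe the remission aspirate stood at 4.44 and the failed-chemotherapy aspirate at 3.78. Every other array lay at 1.00 or lower, the Thai biopsy at 1.00 and MalcolmX skin at 0.61. The post-mortem sample gave −0.17 and the relapse aspirates −0.56, −0.12 and −0.86. Among the resistant biopsies the levels were −0.29 (MalcolmX), −1.16 (Jake), −1.46 (Dog Y) and −1.51 (Rosco), and the MalcolmX aspirate gave −1.38. Rosco skin was at −0.86 and the second resistant aspirate at −1.95. In the 2 aspirates with high CD38, MS4A1 and TLR10 were measured and lay below all samples of the upper MS4A1 set. TLR10 was lower still in the Rosco biopsy and the second resistant aspirate, where CD38 was lowest.

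The dimmer CD38 probe gave the same picture. It lay between 2.26 and 3.19 below the brighter one (median 2.72), and both probes put 98 of 105 pairs of arrays in the same order. By the dimmer probe the remission and failed-chemotherapy aspirates were at 1.37 and 0.73, the Thai biopsy at −1.27, and the remaining arrays between −4.66 and −2.10.

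BCL6 was a dim gene here, well above background on 8 of 15 arrays. Skin was highest, with −3.07 in MalcolmX and −3.03 in Rosco. The remission and failed-chemotherapy aspirates gave −4.54 and −4.94, the second resistant aspirate −5.02 and the post-mortem sample −5.27. The Thai biopsy was at −5.53 and the MalcolmX aspirate at −5.70. BCL6 was not well above background in any of the 4 resistant biopsies (−6.21, −7.92, −6.46 and −7.48 for MalcolmX, Jake, Rosco and Dog Y) or the 3 relapse aspirates (−6.81, −7.45 and −6.76). Among the 9 tumour samples with high MS4A1, BCL6 was measured in 3, the Thai biopsy, the MalcolmX aspirate and the post-mortem sample. On these 3 arrays the lowest signal flagged was also the lowest, at −6.86, −6.84 and −6.42. In the rest of the 9 it was −6.13 or higher, so the flag alone does not compare BCL6 levels between these samples.

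**Figure D1:**
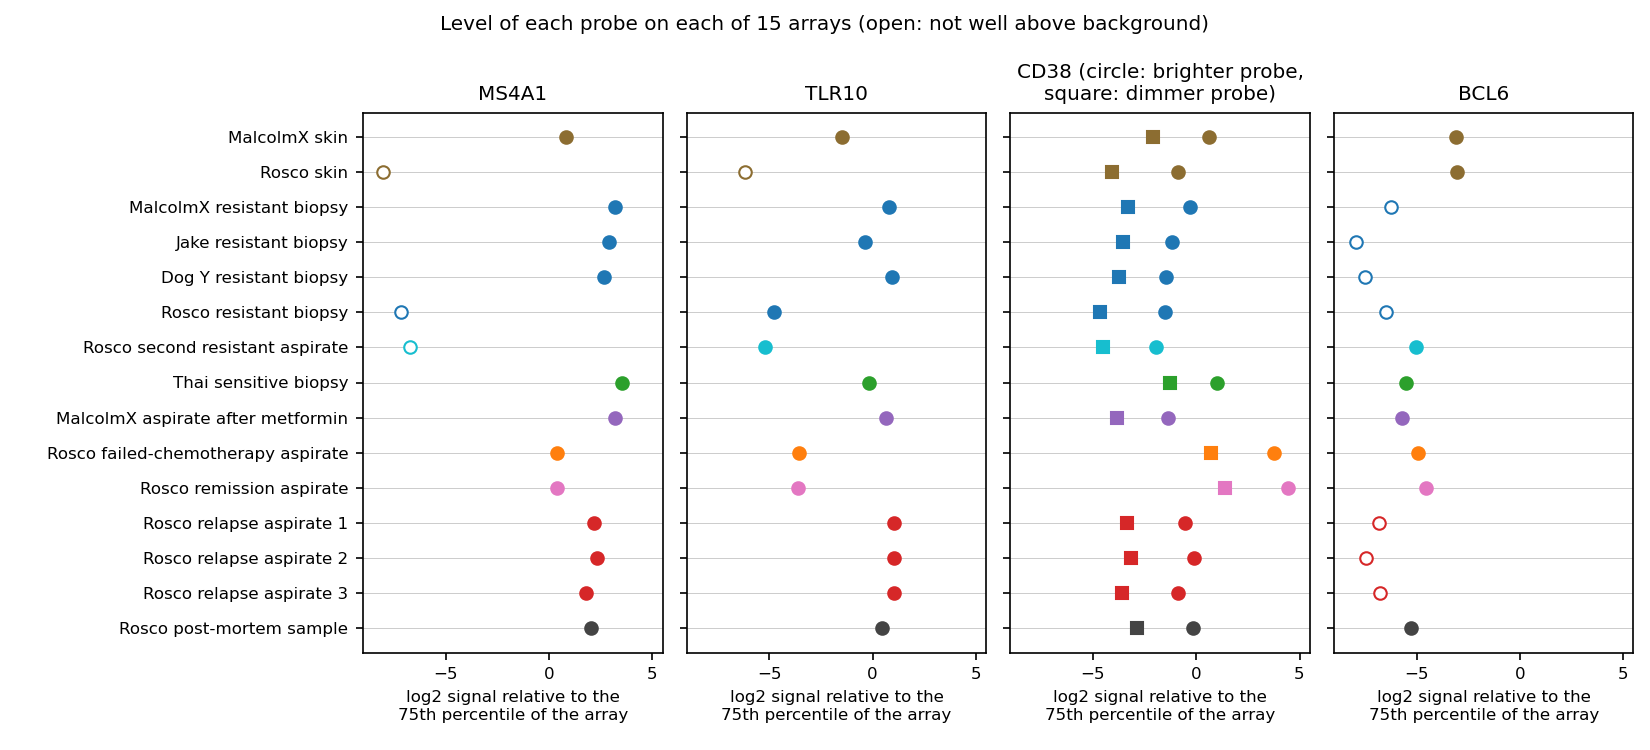
Level of each probe (x axis, log2 signal relative to the 75th percentile of the array) on the 15 arrays (rows, coloured by group), with filled symbols where the probe was well above background and open symbols where it was not. MS4A1 and TLR10 are low in Rosco skin, the Rosco biopsy and the second resistant aspirate, CD38 is highest in the remission aspirate (4.44) and the failed-chemotherapy aspirate (3.78), and BCL6 is highest in skin.

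Many neighbours in these orders lay close together. The yardstick was the SD of the 3 relapse aspirates, which was 0.28 for MS4A1, 0.38 for BCL6 and 0.37 for CD38. BCL6 was not well above background on any of these 3 arrays, so its SD is that of dim signals. All 3 come from 1 dog, so gaps between dogs are set against a spread within a dog, as a description and not a test. For TLR10 the median SD over 23488 targets, 0.23, was used, since its own SD was smaller. Of neighbouring pairs that were both well above background, 4 of 11 differed by more than this for MS4A1, 2 of 7 for BCL6, 5 of 14 for CD38 and 5 of 13 for TLR10. For MS4A1 the gap between the relapse aspirates and MalcolmX skin (0.95) was among these, and the gap between the MalcolmX aspirate and the MalcolmX biopsy (0.038) was not. For CD38 the gap from the failed-chemotherapy aspirate to the Thai biopsy was 2.78. For TLR10 the gap from MalcolmX skin to the failed-chemotherapy aspirate was 2.05.

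Likeness of pattern was measured as the mean absolute difference over the 15 arrays, on the log2 scale, after each gene's median was subtracted. A small value means that the centred levels lay close together, and it is a description with no test. Levels were not scaled, so genes of narrow range also get small values. Among the members, MS4A1 and TLR10 differed by 1.58 on average, and BCL6 and CD38 also by 1.58. The range over the arrays was 11.6 for MS4A1, 7.21 for TLR10, 6.39 for CD38 and 4.89 for BCL6. The equal values therefore do not show equal likeness: BCL6 was highest in skin, and CD38 in the remission aspirate. MS4A1 and BCL6 lay furthest apart, at 3.59, with 3.14 for MS4A1 and CD38, 3.07 for BCL6 and TLR10, and 2.78 for CD38 and TLR10.

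**Figure D2:**
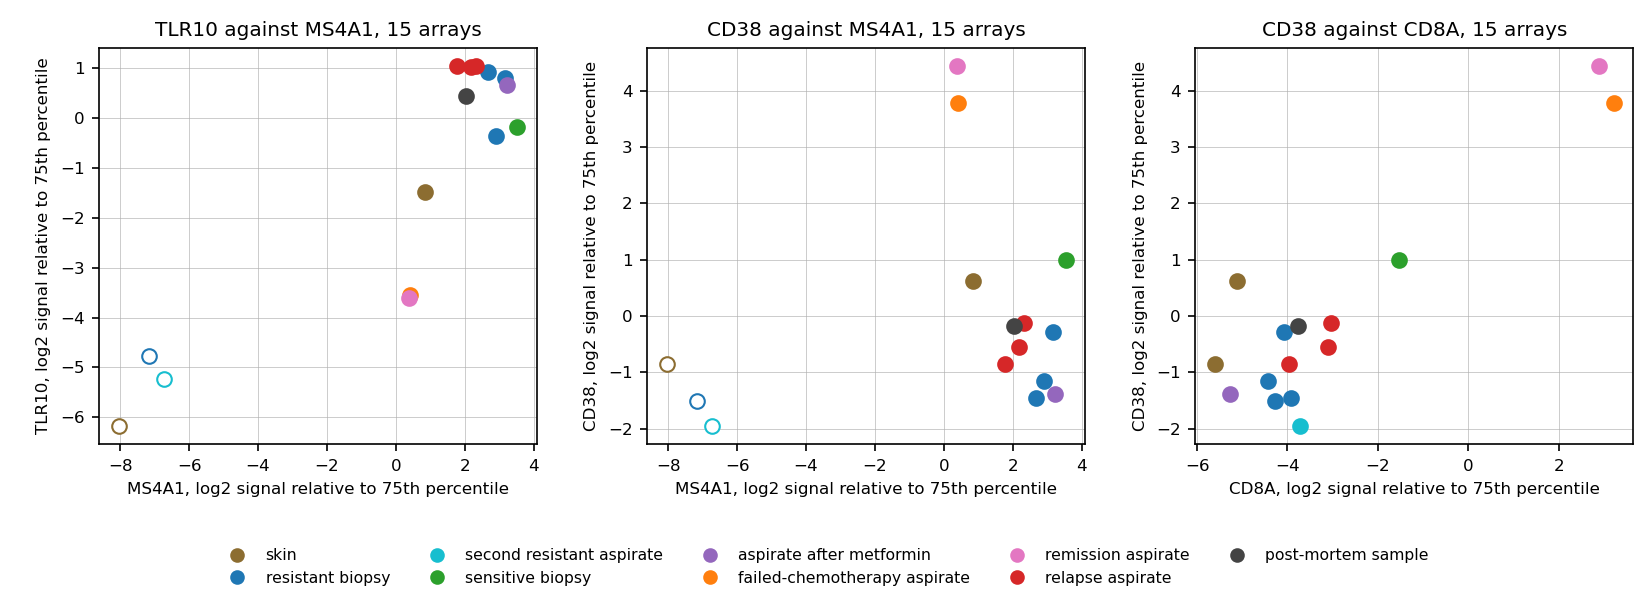
Levels of 2 genes on each of 15 arrays (both axes log2 signal relative to the 75th percentile of the array, 1 point per array, coloured by group, open where either gene was not well above background). TLR10 and MS4A1 are low on the same 3 arrays, the failed-chemotherapy and remission aspirates have CD38 at 3.78 and 4.44 with MS4A1 at 0.40 and 0.38, and the same aspirates have CD8A, a T cell gene, at 3.21 and 2.89.

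Among 1100 named genes that were well above background on at least 5 arrays, those most like MS4A1 were GH1 (0.73), LTB (1.18), ADORA2A (1.27), CD40 (1.28) and TLR1 (1.49). CD40 is the receptor through which T cells help B cells, LTB encodes lymphotoxin beta, and ADORA2A is an adenosine receptor. GH1 encodes growth hormone. In the RefSeq annotation its coding neighbours are CD79B, part of the B cell antigen receptor, and SMARCD2. No probe was named for either. Nearest to TLR10 were CD40 (0.64), OOEP (0.72), ADORA2A (0.76) and TLR1 (0.90). OOEP is known from oocytes. TLR1, a receptor for bacterial lipopeptides, and KLF3 are the coding neighbours of TLR10 in the annotation.

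CD38 was most like CD80 (0.75), IL2 (0.77), PSEN2 (0.82), IL2RB (0.82) and DLA-79 (0.85). CD80 is a costimulatory ligand, IL2 a T cell growth factor, IL2RB a chain of its receptor, PSEN2 a subunit of the gamma-secretase and DLA-79 a canine class I gene. BCL6 was most like STOM (0.61), NDRG1 (0.63), NICN1 (0.77), BMP7 (0.78) and RHOB (0.80). STOM is a membrane protein of red cells and epithelia, and BMP7 a growth factor.

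**Figure D3:**
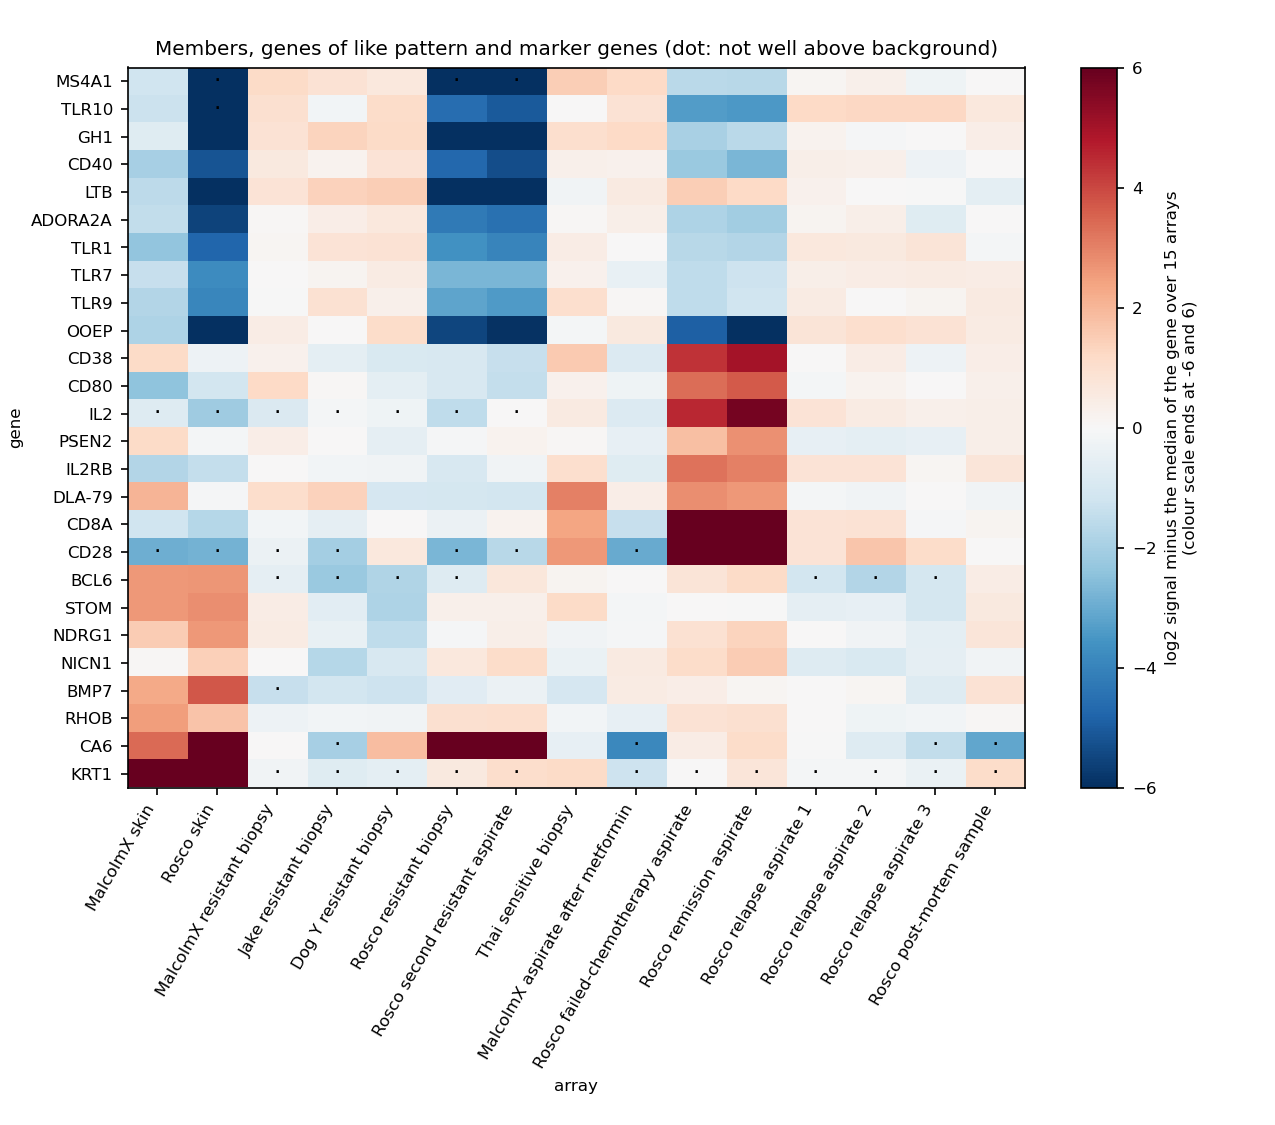
Levels of the 4 members, genes of like pattern, other Toll-like receptors, and marker genes (rows) on 15 arrays (columns), as log2 signal minus the gene's median over the arrays, with colours ending at −6 and 6 and a dot marking a level that was not well above background. CD40, GH1 and TLR1 are low on the arrays where MS4A1 and TLR10 are low, CD80, IL2 and CD8A are high where CD38 is high, and CA6 is high in the Rosco biopsy and the second resistant aspirate.

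The stage of the B cells could be read from few other genes, because most markers carried no symbol on this array. Of 21 B cell markers 1 was named (CD40), as were 2 of 14 germinal centre genes (among them MME), 1 of 13 activated and plasma cell genes (CD44), 1 of 10 early B cell genes (CD34) and 6 of 12 Toll-like receptor genes. CD40 was between 3.95 and 5.10 in the 9 samples with high MS4A1. MalcolmX skin gave 2.27, the failed-chemotherapy aspirate 2.07 and the remission aspirate 1.51, and CD40 was between −1.04 and −0.43 in Rosco skin, the Rosco biopsy and the second resistant aspirate.

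MME encodes CD10, found on germinal centre and early B cells as well as on stromal and epithelial cells. It was at −0.57 in the MalcolmX biopsy and −0.64 in the post-mortem sample, but also at −0.77 in the Rosco biopsy, and at −3.88 in the Dog Y biopsy. Its level therefore did not separate the samples with high MS4A1 from the others. CD34, a marker of progenitor and endothelial cells, lay between −1.72 and 1.14. CD44, an adhesion receptor of activated cells, lay between −2.77 and 0.44, with Rosco skin highest and the failed-chemotherapy aspirate next. No stage was assigned to any sample.

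How tumour differs from the control tissue was asked by setting the resistant biopsies against skin. None of the 3 members tested was called. By limma, 104 of 23953 targets were called in this comparison (0.434%), of which 2 (0.00835%) were higher in the biopsies and 102 (0.426%) lower, and the median of all tested targets was 0.25 higher. Without the Rosco biopsy the count was 3128, with 1499 higher and 1629 lower. In the biopsies BCL6 averaged −7.02 ± 0.81 (SD, n = 4), and the skin mean was −3.05 ± 0.030 (SD, n = 2), with no overlap, as for 28.5% of targets. The difference was −3.96 (SE 0.57, limma adjusted p = 0.0627), at least 6.92-fold lower. Here and below, "at least" is used where a gene was dim on every array of 1 group. The dim group is then set at the lowest signal well above background on each array, or at its own signal where that is higher. BCL6 entered the test only through skin. It passed the threshold without the Rosco biopsy (−4.15, limma adjusted p = 0.0209), under quantile scaling (−3.60, 0.0498) and with dog as a random block (−3.83, 0.0447), and its adjusted p ran up to 0.647 otherwise. That value came from normexp background correction, where the difference was −0.97. This correction adds an offset of 50 to every signal, which narrows differences of dim genes.

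In the biopsies MS4A1 averaged 0.41 ± 5.05 (SD, n = 4), and the skin mean was −3.60 ± 6.28 (SD, n = 2), a spread that covers the difference of 4.01. It was outside the test because it was dim on arrays of both groups. Without the Rosco biopsy it averaged 2.93 ± 0.25 (SD, n = 3), and the difference was 6.53 (limma adjusted p = 0.12). Without Rosco skin the difference was −0.43. Within MalcolmX the biopsy was 2.34 above the skin, while in Rosco both were dim. Within slide 1 the difference was −1.35. This value and the −0.43 both include the dim Rosco biopsy. The other 3 biopsies, at 2.68 to 3.18, each lay above MalcolmX skin at 0.84, the 1 skin array in both. In slide 2, where the 1 skin array was the dim one of Rosco, the MalcolmX biopsy was at least 555-fold above it.

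TLR10 differed by 2.97 (SE 1.99, limma adjusted p = 0.449) and CD38 by −0.98 (SE 0.58, adjusted p = 0.411), and for both the groups overlapped. TLR10 entered the test only through the biopsies. TLR10 was higher in the biopsy than in the skin of the same dog for MalcolmX (by 2.28) and for Rosco (by 1.40, with the skin dim). Within slide 1 it differed by 0.083, and in slide 2 the MalcolmX biopsy was at least 106-fold above Rosco skin. Without the Rosco biopsy TLR10 differed by 4.28 (limma adjusted p = 0.0884), without MalcolmX skin by 5.32 and without Rosco skin by 0.63. The 0.63 and the 0.083 include the Rosco biopsy, at −4.77. The other 3 biopsies, at −0.37 to 0.92, lay above MalcolmX skin at −1.49. CD38 was lower in the biopsy of MalcolmX by 0.90 and of Rosco by 0.65, but within slide 2 it differed by 0.58 in the other direction. With 1 array left out the CD38 difference ran from −1.72 to −0.24. Keratinocyte markers moved with this contrast, with a summed level of 203 and 1274 in the skin samples and between 2.36 and 16.5 in the biopsies (7 of 13 named). Their part in the BCL6 difference was not tested. CD40 and the 5 Toll-like receptors tested had higher values in the biopsies, by a median of 2.04 for the receptors, and 0 of them were called.

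Whether tumours of unlike drug response differ in these genes was asked with the sensitive biopsy of Thai and the resistant biopsies. All 4 members had higher values in the Thai biopsy, and none was called. Here 0 of 26372 targets were called by limma (0%), with 786 at an unadjusted p under 0.05. With 1 sensitive array, the spread is that of the resistant biopsies. MS4A1 and BCL6 entered this test only through the Thai array, where they were higher. CD38 was at 1.00 against −1.10 ± 0.57 (SD, n = 4), a difference of 2.11 (SE 0.63, limma adjusted p = 1.00), or 4.30-fold, and the groups did not overlap. By the dimmer CD38 probe the difference was 2.54. Groups did not overlap for 35.7% of all targets tested.

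MS4A1 differed by 3.13 (SE 4.26), and without the Rosco biopsy by 0.61. TLR10 differed by 0.67 (SE 2.29), and without the Rosco biopsy by −0.63, the opposite direction. BCL6, measured in the Thai biopsy and dim in the 4 others, was at least 1.25-fold higher. For all 3 the limma adjusted p was 1.00. Of 19 T and NK cell markers 7 carried a symbol, and their summed level was 14.3 in the Thai biopsy and between 1.15 and 2.47 in the resistant biopsies. CD8A was at −1.53 in Thai and between −4.44 and −3.91 in the resistant biopsies. The part of these cells in the CD38 difference was not tested. The sensitive biopsy was read on another scan day than the resistant ones, so scan day and response cannot be told apart.

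The relapse aspirates of Rosco were compared with the failed-chemotherapy and remission aspirates, to ask how the tumour at relapse differs from the tumour before it. These 3 aspirates are called relapse in their source names, while their titles say no remission. MS4A1 and TLR10 rose and CD38 and BCL6 fell. All 4 members were called and their groups did not overlap, although BCL6 entered the test only through the 2 aspirates in which it was measured. This stands against a high background: limma called 8555 of 25382 targets (33.7%), 4410 higher (17.4%) and 4145 lower (16.3%), and the groups did not overlap for 60.3%. Under array-median scaling 5569 were higher and 3344 lower. Both groups come from 1 dog, and the group of 2 pools single samples of 2 conditions.

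TLR10 rose from −3.58 ± 0.048 (SD, n = 2) to 1.03 ± 0.013 (SD, n = 3), by 4.61 (SE 0.16, limma adjusted p = 0.000128), or 24.4-fold. MS4A1 rose from 0.39 ± 0.018 (SD, n = 2) to 2.10 ± 0.28 (SD, n = 3), by 1.70 (SE 0.22, limma adjusted p = 0.00278), or 3.26-fold. CD38 went from 4.11 ± 0.47 (SD, n = 2) to −0.51 ± 0.37 (SD, n = 3) and so fell by 4.62 (SE 0.31, limma adjusted p = 0.000433), or 24.6-fold. The dimmer CD38 probe fell by 4.41. BCL6 went from −4.74 ± 0.28 (SD, n = 2) to −7.01 ± 0.38 (SD, n = 3), at least 2.41-fold lower (difference −2.26, SE 0.28, limma adjusted p = 0.00239). The 2 B cell genes therefore moved by unlike amounts, 24.4-fold for TLR10 and 3.26-fold for MS4A1.

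Slides 3 and 4 each held arrays of both groups. Within slide 3 the differences were 1.77 for MS4A1, 4.56 for TLR10, −4.34 for CD38 and −1.87 for BCL6. Within slide 4 they were 1.68, 4.65, −4.93 and −2.56 in the same order, and MS4A1 missed the threshold there (limma adjusted p = 0.0719). With slide as a block all 4 passed. BCL6 missed it with normexp background correction (−0.52, limma adjusted p = 0.0917). The offset of 50 in that correction exceeds the processed signals of BCL6 on these arrays (2.48 to 15.7). That setting therefore narrows the BCL6 difference and cannot show its size.

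**Figure D4:**
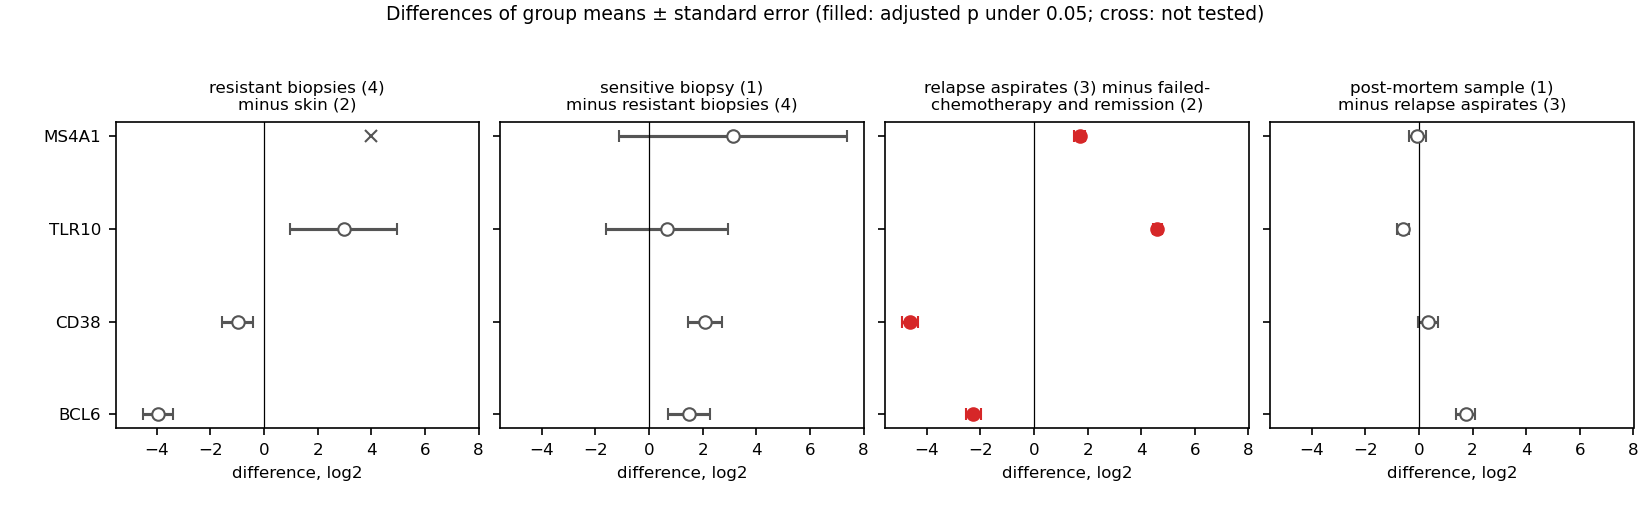
Difference of group means (x axis, log2) with its standard error as a bar for each member in 4 comparisons, titled with the groups and their number of arrays. Filled points passed an adjusted p of 0.05, and the cross marks MS4A1 in the first panel, which was not tested. All 4 members passed in the relapse comparison, with MS4A1 and TLR10 higher and CD38 and BCL6 lower, and none passed in the others.

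Other genes of the B cell and T cell lists differed in this comparison as well. CD40 rose by 2.59 (limma adjusted p = 0.00187). Of 5 tested Toll-like receptor genes 3 rose, TLR1 by 2.36, the RNA receptor TLR7 by 1.81 and the DNA receptor TLR9 by 1.59, and 0 fell, with values of −0.13 for TLR2 and 0.62 for TLR4. The receptors had a median difference of 1.59 against −0.08 over all targets tested. CD44 fell by 1.63 (limma adjusted p = 0.0265). MME differed by −0.65 and CD34 by −0.40, and neither passed.

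T and NK cell markers fell at relapse beside CD38: 5 of 7 were called lower and 0 higher, with a median of −2.27. Their summed level was 23.3 in the failed-chemotherapy aspirate and 15.7 in the remission aspirate, against 1.81 to 3.38 in the relapse aspirates. CD8A, the cytotoxic T cell coreceptor, fell by 6.42 (SE 0.33, limma adjusted p = 0.000240), from 3.05 to −3.37. CD28, the T cell costimulatory receptor, fell by 5.35. All 5 proliferation genes that carried a symbol rose, BIRC5, a survival protein of dividing cells, by 1.94. Macrophage and dendritic markers had higher values at relapse (4 of 4 tested, 1 of them called). Their summed level was 13.2 to 16.7 there, against 6.97 after failed chemotherapy and 5.59 in remission. CYBB, from that list, rose by 2.04 (limma adjusted p = 0.00125). The part of T cells in the fall of CD38 was not tested. The part of T cells, macrophages or dendritic cells in the rise of MS4A1, TLR10, CD40 and the other Toll-like receptors was not tested either.

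Of the genes most like MS4A1 and TLR10, GH1 rose by 1.81, ADORA2A by 1.89 and OOEP by 6.33. LTB went the other way and fell by 1.26, from 6.03 to 4.77, although its pattern over the 15 arrays was close to that of MS4A1. Those most like CD38 all fell, CD80 by 3.50, IL2 by 4.59, PSEN2 by 2.81, IL2RB by 2.55 and DLA-79 by 2.80. They were picked for likeness on arrays that include these 5, so their direction is a description. Of those most like BCL6, NDRG1 fell by 1.40, NICN1 fell by 2.06 and RHOB fell by 1.04, while STOM (−0.70) and BMP7 (−0.49) did not pass.

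Within Rosco, the relapse mean of MS4A1 was at least 262-fold above the skin, at least 239-fold above the biopsy and at least 199-fold above the second resistant aspirate. TLR10 at relapse was at least 125-fold above the skin, and by measured levels 55.8-fold above the biopsy and 76.1-fold above the second resistant aspirate. CD38 at relapse was 1.27-fold above the skin, 2.00-fold above the biopsy and 2.72-fold above the second resistant aspirate. These are ratios to single arrays, with no test. The biopsy and the second resistant aspirate thus lacked a measured MS4A1 level, whereas the other 6 tumour samples of Rosco all had one, among them the failed-chemotherapy and remission aspirates, which the labels also call resistant.

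The post-mortem sample was compared with the relapse aspirates to ask whether the tumour at death kept its marker levels. The 1 post-mortem array adds no spread of its own, so the test rests on that of the 3 aspirates, and a missed threshold does not show that levels were kept. No member was called, and limma called 0 of 27124 targets (0%), with 4129 at an unadjusted p under 0.05. MS4A1 differed by −0.053 (SE 0.31, limma adjusted p = 0.951) and CD38 by 0.34 (SE 0.36, adjusted p = 0.682). Both post-mortem levels lay within the range of the relapse aspirates. TLR10 was lower in the post-mortem sample (−0.59, SE 0.23, limma adjusted p = 0.330), with no overlap, as for 66.1% of targets. BCL6, dim in the relapse aspirates and measured after death, was at least 1.68-fold higher (difference 1.74, SE 0.37, limma adjusted p = 0.170). BCL6 entered this test only through the post-mortem array. Fibroblast and matrix markers had a summed level of 65.5 in the post-mortem sample and between 5.86 and 9.11 at relapse (7 of 11 named). Their part in the BCL6 value was not tested.

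Metformin separates the samples of 2 pairs, each of 1 dog and with 1 array a side, so there is no test. In MalcolmX the aspirate after metformin and the biopsy had MS4A1 at 3.21 and 3.18 and TLR10 at 0.66 and 0.79. CD38 was lower in the aspirate, by 1.09 with the brighter and 0.58 with the dimmer probe. BCL6 was at −5.70 in the aspirate, well above background, and at −6.21 in the biopsy, where it was not. The lowest signal flagged on the biopsy array was −5.50, above the aspirate's level, so the flags alone do not show a difference. The MalcolmX pair also differs in how it was sampled. In Rosco, the remission aspirate after metformin and the failed-chemotherapy aspirate before it had MS4A1 at 0.38 and 0.40, and TLR10 at −3.61 and −3.54. CD38 was higher in remission by 0.66 with the brighter probe and 0.64 with the dimmer, and BCL6 was higher by 0.39. The fibroblast and matrix markers, at 66.3 and 138 in the MalcolmX pair and at 11.1 and 13.4 in the Rosco pair, differed between the pairs too.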

How the data were processed

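RNA of 15 samples was measured on 1-colour Agilent arrays. Only RNA with an integrity number of at least 8 was used, per the labels' protocols. Agilent Feature Extraction 11.0.1.1 gave the spot intensities, per the file headers, and the deposited processed intensity is background-subtracted but not scaled between arrays. In the series table the deposited intensities are spot median minus background median on a linear scale (678300 of 678300 cells equal to the scanner values within 0.01). Deposited columns with other values hold 0 or 1 flags per spot.

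Processed intensities were put on the log2 scale, minus each array's 75th percentile, and spots of a probe were averaged. Spots marked as outlying (2 to 50 per array) were left out, none of them a member's. Of several probes of a target the one with the highest mean was used, giving 36604 targets. To be tested, a target had to be flagged well above background throughout at least 1 group. Differences were tested with limma 3.58.1 in R 4.3.3 (linear model, moderated statistic), with two-sided p-values adjusted by Benjamini-Hochberg across the targets tested and a threshold of 0.05. On simulated data with 200 targets changed by 6 on the log2 scale, the fit recovered 73.0% of them for resistant against skin, 52.0% for sensitive against resistant, 97.5% for relapse and 82.5% for post-mortem. That change exceeds the largest tested member difference of the main fits, −4.62 for CD38 at relapse. The simulated arrays were also independent of each other, so these shares do not give the power for the differences reported. The labels do not say how far samples of 1 dog are separate, so p-values measure only the spread between these samples. Depth in the sequencing sense does not exist here, and the number of arrays limits the precision.

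Skin and biopsy of MalcolmX and of Rosco come from the same animal, so dog pairs them. The correlation within dog was 0.199 over the 23953 targets tested in that comparison, and it rests on the pairs of MalcolmX and Rosco alone.

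Members, gene lists and tests were chosen with earlier results of these data known. Named genes were the members, every named gene of 5 B cell and Toll-like receptor lists, the 5 genes most like each member, and up to 3 genes of each of 7 other lists with the highest level on any array. Of these last lists, macrophage and dendritic markers had summed levels of 2.00 to 17.5 and skeletal muscle markers of 0.105 to 269 over the arrays. CD79B was named after values were seen. A few genes that this rule took are not reported here. No genome of the array's build was used, so no positions or sequences are given. Alternatives were quantile and array-median scaling, normexp with an offset of 50, the series table, no filter and the mean of all probes. Others were slide and dog as blocks, single slides, and each array left out. The MalcolmX and Rosco pairs alone, slide as a random block, and the dimmer CD38 probe were added after seeing the data.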

Additional observations from a re-analysis of the deposited data

Results flagged for a closer look

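Dixon's criterion marked 14 of 51 named genes among the 4 resistant biopsies, where 1 array lay far from the other 3. Over all 23953 targets tested against skin the share was 8.47%, and the Rosco biopsy stood apart for 6.24%. Chance gives about 1 in 20 for unselected groups, a rate that does not apply here, since many of the 51 were chosen for likeness to MS4A1 or for a high level on 1 array. The Rosco biopsy was the array that stood apart for 13 of them. It was lowest for MS4A1 (−7.16), CD40 (−0.43), TLR1 (−1.68), TLR7 (−2.37), GH1 (−5.57), LTB (−2.53), ADORA2A (−2.13) and OOEP (−1.15). It was highest for the keratins KRT15 (2.12) and KRT19 (5.02), for LTF (3.71), which encodes the secreted protein lactoferrin, for the muscle myosin MYH2 (−1.92) and for RHOB (−2.04). CD34 was highest in the MalcolmX biopsy (1.14).

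In the 2 pairs of samples around metformin, CD38 was lower afterwards in MalcolmX (−1.09) and higher in Rosco (0.66). MS4A1 moved by 0.038 and −0.025, both smaller than its SD of 0.28 among relapse aspirates. The difference between the pairs was not tested, since each has 1 array a side.

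The MalcolmX aspirate after metformin entered no test. Its MS4A1 level of 3.21 and its TLR10 level of 0.66 lay above those of both skin samples.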

How the results depend on the processing

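Of 290 values recomputed for the 4 comparisons, 253 kept their direction and side of the threshold, or moved by less than the spread between replicates where there was no test, counts of calls close to the main count included. For MS4A1 against skin that spread is wide. For resistant biopsies against skin, 104 targets were called, against 8 with normexp, 55 from the series table, 66 with no filter, 32 with slide as a block and 40 within slide 1. Leaving out 1 array gave 5 (without the Jake biopsy) to 3128 (without the Rosco biopsy), with 11 and 21 without the MalcolmX and Dog Y biopsies and 327 and 321 without the MalcolmX and Rosco skin. With dog as a replicate block on the 2 paired dogs limma called 0 (2160 at an unadjusted p under 0.05), and BCL6 differed by −3.28, CD38 by −0.77 and TLR10 by 1.84. As a random replicate block BCL6 passed (−3.83). TLR10 ran from 0.63 to 5.32 and CD38 from −1.72 to −0.24 with 1 array left out. MS4A1 was −0.43 without Rosco skin (leave-one-out range −0.43 to 8.44), −1.35 within slide 1 and 11.22 within slide 2, where the skin was dim. The −0.43 and the −1.35 include the dim Rosco biopsy. BCL6 was −0.97 with normexp, −3.60 with quantile scaling, −4.15 without the Rosco biopsy (range −4.23 to −3.66), −3.18 within slide 2 and −3.14 in the MalcolmX pair. Within slide 2 CD38 was 0.58 and TLR10 6.97, again with dim skin.

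For sensitive against resistant, TLR10 was −0.63 without the Rosco biopsy (range −0.63 to 1.26). The correlation within slides was −0.368. For relapse, 8555 calls became 2497 within slide 4 and 3769 (without the remission aspirate) to 9760 (without relapse aspirate 3), with 5641 without relapse aspirate 1 and 5535 without the failed-chemotherapy aspirate. MS4A1 was 1.68 within slide 4, BCL6 −0.52 with normexp and −1.87 within slide 3, and TLR10 4.56 within slide 3. For the post-mortem sample, 0 calls became 393 with normexp, and 0 to 431 with an array left out (431 without relapse aspirate 3, 107 without relapse aspirate 1). MS4A1 was 0.11 with quantile scaling and 0.063 without relapse aspirate 2 (range −0.21 to 0.063), and TLR10 was −0.58 within slide 3. Array-median scaling moved the median of all targets from 0.25 to 0.51 in the skin comparison, from −0.08 to 0.11 at relapse and from 0.060 to −0.18 after death. Causes of these shifts were not tested. Signals close to background limit BCL6 in every comparison.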
